A study of Mus musculus with 4 samples.

Results

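The cells described here are ileal enterocytes that carried the bile acid uptake genes and few lipid-absorption genes, found in crypt preparations of the mouse small intestine profiled cell by cell 7 days after bone marrow transplantation. A barcode counted as a bile acid transporting cell when Fabp6, Slc10a2, Slc51a and Slc51b together made up at least 0.2% of its UMIs (unique molecular identifiers, 1 per captured RNA molecule). It also had to hold Apoa1, Apoa4, Apoc3, Fabp2 and Rbp2 below 0.5% of its UMIs, Car1 below 1%, 6 goblet genes below 1%, Lyz1 and the defensins below 5%, and no Ptprc UMI. Barcodes with at least 500 genes, at least 1000 UMIs and at most 20% mitochondrial UMIs were considered, which kept 12285 of 16565. Of these, 780 were bile acid transporting cells: 54 and 292 in allogeneic libraries 1 and 2, against 217 and 217 in syngeneic libraries 1 and 2. The values that chose the cells are given below as descriptions, with no test.

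Each group had 2 libraries, numbered in the order of their records. The allogeneic group was C57BL/6 mice given BALB/c marrow, which the labels call mice with graft-versus-host disease, in which donor T cells attack host tissue. The syngeneic group, the controls, was C57BL/6 mice given C57BL/6 marrow. All recipients were lethally irradiated females aged 8 to 12 weeks, so the irradiation is shared by both groups and no unirradiated mouse was included. Each library pooled 3 to 4 mice, so a library is a pool and not an animal. The library names begin with KO, and no knocked-out gene is given in the labels.

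In the terminal ileum, conjugated bile acids enter the enterocyte at its luminal face through the sodium-dependent transporter encoded by Slc10a2 (ASBT). They are carried through the cytosol by the binding protein Fabp6 and leave across the basolateral membrane through the heterodimer of Slc51a and Slc51b (OST-alpha and OST-beta). The bile acid receptor FXR, encoded by Nr1h4, is known to induce Fabp6, both OST genes and the hormone gene Fgf15, while bile acids lower Slc10a2 in the mouse ileum.

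Libraries held 16755124 and 26677842 UMIs in the allogeneic group, against 18262459 and 14961466 in the syngeneic group. The bile acid transporting cells contributed 389374 and 1656199 UMIs in the allogeneic libraries, against 1241682 and 1249073 in the syngeneic ones, so allogeneic library 1 is the least precise. Barcodes over the mitochondrial limit made up 27.2% and 11.2% of the allogeneic libraries, against 14.6% and 14.9% of the syngeneic ones. Over 7410 genes, the standard deviation of the log2 difference was 0.81 between the allogeneic libraries, against 0.39 between the syngeneic libraries. Any pair of libraries shared 2 to 7 cell barcodes.

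The 4 bile acid genes chose the cells, so their presence is no support for the label. Other enterocyte genes named below were present. RNA of dividing and translating cells was also present, so the cells are not all mature enterocytes by these markers. Ribosomal protein genes took a median of 14.0% and 14.0% of UMIs in the allogeneic libraries, against 12.3% and 10.2% in the syngeneic ones. In ileal cells that passed the same limits except for lipid genes at 0.5% or more, the same medians were 1.75% and 1.54% in allogeneic libraries, against 2.87% and 1.95% in syngeneic ones. At least 1 UMI of 6 mitosis genes was present in 24.1% and 45.5% of allogeneic bile acid transporting cells, against 32.7% and 26.3% of syngeneic ones. The lipid-bearing ileal cells had such a UMI in 4.47% to 7.83% of cells in allogeneic libraries, against 4.40% to 5.63% in syngeneic ones. Both measures were higher in the chosen cells than in the lipid-bearing ileal cells in every library.

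Markers of other cell types were also measured. Levels are given as CPM, the UMIs of a gene per 1000000 UMIs of the summed cells. The summed level of 15 T or NK markers was 12.8 and 59.8 CPM in allogeneic cells, against 2.42 and 8.01 CPM in syngeneic cells. The 11 stem cell markers summed to 95.02 and 66.4 CPM in allogeneic cells, against 194 and 325 CPM in syngeneic cells; Gkn3 was at 0 in all 4 libraries, and Lgr5 was at 0 in allogeneic library 1 and syngeneic library 1. The 11 Paneth markers, of which 10 were in the files, summed to 56.5 and 165 CPM in allogeneic cells, against 302 and 250 CPM in syngeneic cells. The 14 cycling markers summed to 604 and 1389 CPM in allogeneic cells, against 1516 and 1269 CPM in syngeneic cells, with overlapping groups. The 9 colonocyte markers summed to 1626 and 888 CPM in allogeneic cells, against 1039 and 1010 CPM in syngeneic cells, with the defining Aqp8 and Slc37a2 at 0 in all 4 libraries. In other cells without Ptprc the colonocyte sum was 455 and 2316 CPM in allogeneic libraries, against 434 and 431 CPM in syngeneic libraries, so it was higher in the bile acid transporting cells in 3 of 4 libraries. The 9 goblet markers reached 92.5 and 675 CPM in allogeneic cells, against 345 and 521 CPM in syngeneic cells. Enteroendocrine markers summed to 244 and 111 CPM in allogeneic cells, against 242 and 143 CPM in syngeneic cells, and tuft markers to 12.8 and 54.3 CPM, against 53.2 and 44.0 CPM in syngeneic cells. Myeloid, B or plasma and stromal lists each summed to at most 5.14 CPM in allogeneic cells, against at most 13.6 CPM in syngeneic cells. Doublet calls fell on 0 and 5 allogeneic cells, against 1 and 1 syngeneic cells.

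Genes that led these cells over all other cells without Ptprc, among 2486 genes of at least 50 CPM, describe the same identity and carry no test, because the cells were chosen on their RNA. Ms4a18, a tetraspan membrane protein gene, stood at 280 and 199 CPM in allogeneic cells, against 149 and 158 CPM in syngeneic cells, 7.68 times its mean in the other cells. The mean ratio was 5.80 for the glycosyltransferase gene Mgat4c, 5.47 for the cell-cycle inhibitor Cdkn2b, 4.62 for the antimicrobial lectin Reg3b, 4.26 for Nr1h4 and 4.11 for the keratin gene Krt19. Each of these 6 ratios was above 1 in all 4 libraries. The ileal cells with lipid genes were left in the other cells, and they also held Reg3b at 31869 and 32905 CPM in allogeneic libraries, against 60994 and 48215 CPM in syngeneic libraries.

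The cells were a smaller part of the crypt preparation in allogeneic mice, in values that the marker limits themselves set. They made up 2.85% (exact binomial 95% interval 2.15% to 3.70%) and 6.13% (5.47% to 6.85%) of cells without Ptprc in the allogeneic libraries, against 7.60% (6.66% to 8.64%) and 8.88% (7.78% to 10.1%) in the syngeneic libraries. The means were 4.49% ± 2.32 in allogeneic and 8.24% ± 0.902 in syngeneic libraries (SD, n = 2 each), and the groups did not overlap. These shares carry no test, because the genes of the cell limits set them. Ileal cells with and without lipid genes together were 19.4% and 48.5% in allogeneic libraries, against 23.5% and 30.0% in syngeneic libraries, with overlapping groups. Of those ileal cells, bile acid transporting cells with few lipid genes made up 14.7% and 12.6% in allogeneic libraries, against 32.3% and 29.6% in syngeneic ones. The intervals cover counting error only, and the share of cells that survive dissociation was not tested.

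Cells near the limits were counted, to be read beside 54 and 292 allogeneic and 217 and 217 syngeneic bile acid transporting cells. Between 0.15% and 0.2% of marker UMIs, just outside, lay 11 and 17 cells in allogeneic libraries, against 9 and 8 in syngeneic ones. Between 0.2% and 0.25%, just inside, lay 5 and 21 cells in allogeneic libraries, against 12 and 3 in syngeneic ones. At the lipid limit, 4 and 32 allogeneic cells, against 11 and 16 syngeneic cells, lay just inside at 0.4% to 0.5%. Just outside it, at 0.5% to 0.6%, lay 3 and 22 allogeneic cells, against 12 and 8 syngeneic cells.

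The bile acid genes did not move together between the groups. The marker share of a cell's UMIs had a median of 0.923% and 1.11% in allogeneic cells, against 3.29% and 3.60% in syngeneic cells. Cells with a marker share of 3% or more were 18.5% and 17.1% of the allogeneic cells, against 54.8% and 52.995% of the syngeneic cells.

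**Figure D1:**
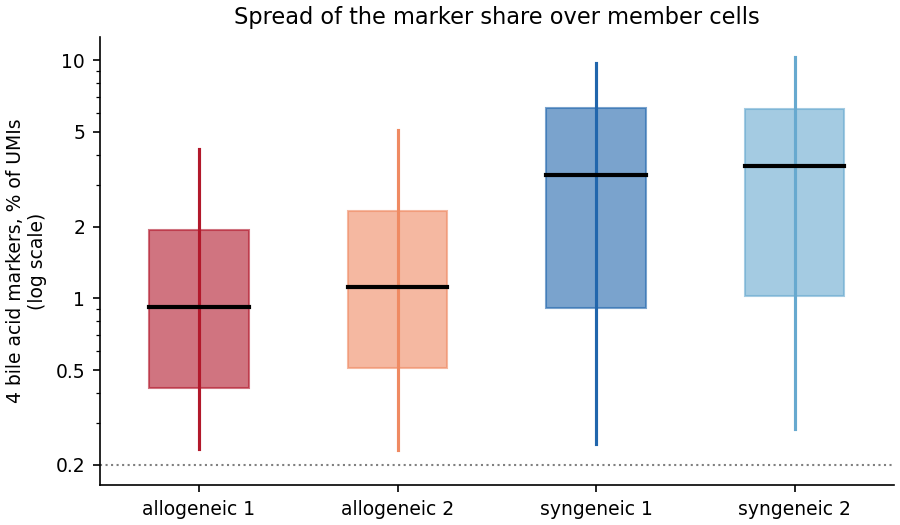
Share of each bile acid transporting cell's UMIs that came from Fabp6, Slc10a2, Slc51a and Slc51b, on a log axis, for allogeneic libraries 1 and 2 and syngeneic libraries 1 and 2. Boxes span the 25th to 75th percentile of cells, black lines are medians, thin lines span the 5th to 95th percentile and the dotted line is the 0.2% limit; the allogeneic medians of 0.923% and 1.11% lie under the syngeneic medians of 3.29% and 3.60%.

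Fabp6, the cytosolic bile acid binding protein (GRCm38 chr11:43596049-43601540, minus strand), carried that difference. Its level was 11290 and 12743 CPM in allogeneic cells, against 35300 and 34151 CPM in syngeneic cells, a log2 fold change of -1.45 that is given without a test. Fabp6 made up 81.8% and 81.6% of the UMIs of the 4 markers in allogeneic cells, against 95.7% and 95.3% in syngeneic cells. In 10 of 54 (18.5%) and 49 of 292 (16.8%) allogeneic cells, Fabp6 gave under 50% of the marker UMIs. No syngeneic cell was like this: 0 of 217 in each library, which allows a share of up to 1.38% in each. Of those allogeneic cells, 1 and 15 had no Fabp6 UMI at all and qualified through the other 3 genes, against 0 and 0 syngeneic cells.

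The luminal transporter went the other way. Slc10a2 (chr8:5083219-5105351, minus strand) stood at 516 and 566 CPM in allogeneic cells, against 132 and 204 CPM in syngeneic cells, a log2 fold change of 1.77. Thinned to 1000 UMIs per cell, which left out no member, 38.9% and 39.4% of allogeneic cells had a Slc10a2 UMI, against 10.1% and 15.7% of syngeneic cells. Without thinning the shares were 63.0% and 69.5% in allogeneic cells, against 30.9% and 35.5% in syngeneic cells. T cells of the same libraries (cells with Ptprc and a CD3 gene, 154 and 104 in allogeneic libraries, against 9 and 20 in syngeneic ones), which should lack the gene, showed 2.60% and 4.81% in allogeneic libraries, against 1 of 9 (11.1%) and 1 of 20 cells in syngeneic libraries at the same depth. The median depth before thinning was 5825 and 5040 UMIs in allogeneic members, against 4690 and 4613 UMIs in syngeneic members; in T cells it was 1879 and 2053 UMIs, against 2693 and 1350 UMIs. In syngeneic library 1, the share in members was no higher than that in its 9 T cells, of which 33.3% passed the 0.2% marker limit themselves, so these T cells are no clean measure of background. The level of Slc10a2 there was 132 CPM in members, beside 65.1 CPM in the T cells, from 2 UMIs.

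The exporter subunits parted from each other. Slc51a (chr16:32474504-32487879, minus strand) was at 945 and 885 CPM in allogeneic cells, against 908 and 912 CPM in syngeneic cells, a log2 fold change of 0.08 with overlapping groups. Its partner Slc51b (chr9:65412714-65422955, minus strand) was at 1048 and 1415 CPM in allogeneic cells, against 555 and 553 CPM in syngeneic cells, a log2 fold change of 1.24. The ratio of Slc51b to Slc51a UMIs was 1.11 and 1.60 in allogeneic cells, against 0.611 and 0.607 in syngeneic cells. In ileal cells with lipid genes, chosen by the same 4 markers, this ratio was 1.004 and 1.68 in allogeneic libraries, against 0.743 and 0.835 in syngeneic libraries.

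**Figure D2:**
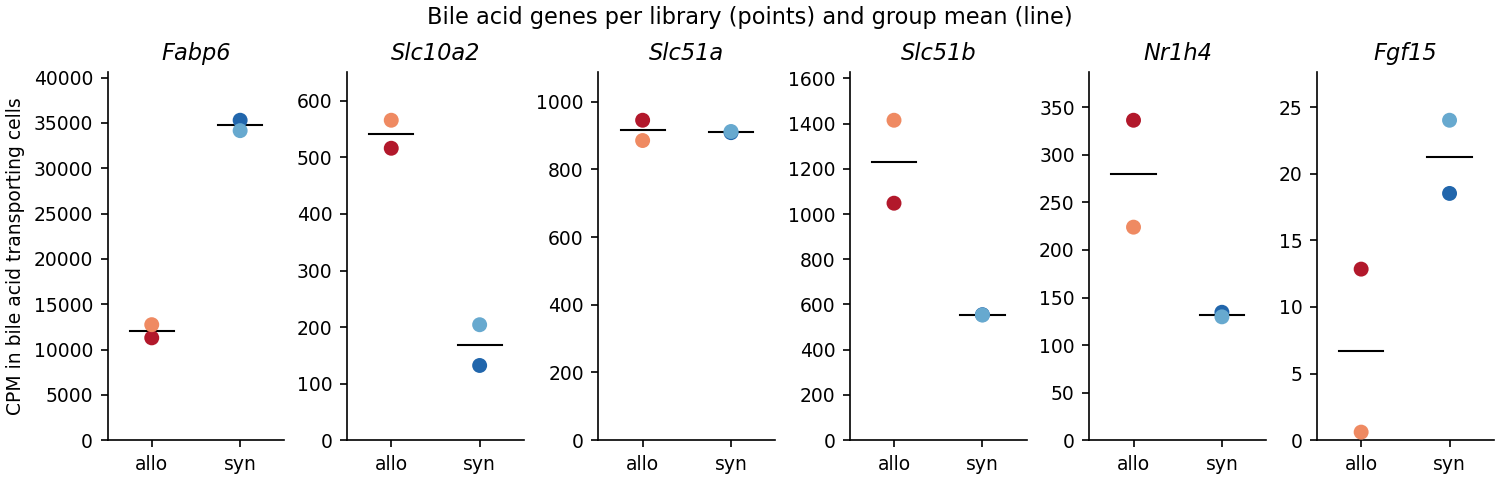
Level in CPM of 6 bile acid genes in bile acid transporting cells, 1 panel a gene with its own linear axis from 0. Points are libraries (allogeneic left, syngeneic right) and lines are group means; Fabp6 is lower and Slc10a2, Slc51b and Nr1h4 are higher in both allogeneic libraries, while the Slc51a groups overlap.

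The sequence upstream of the OST genes is shown because both subunits are known FXR targets, while only Slc51b RNA was higher in both allogeneic libraries. The stretches are from RefSeq on GRCm38.p6, and capitals mark the letters AGGTCA, the half-site read by many nuclear receptors, on either strand. Slc51a is shown from 150 bases to 1 base before its annotated start (chr16:32487880-32488029, minus strand), with the half-site on the reverse strand at -58 to -53. Slc51b is shown from 250 to 101 bases before its start (chr9:65422874-65423023, minus strand), with the half-site at -203 to -198. Positions count from the RefSeq start, and the part of the Slc51b stretch nearest to it lies inside the gene as GENCODE places it, with the half-site upstream of both starts.
Slc51a: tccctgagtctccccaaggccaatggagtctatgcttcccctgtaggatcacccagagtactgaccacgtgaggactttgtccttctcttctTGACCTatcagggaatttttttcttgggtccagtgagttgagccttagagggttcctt
Slc51b: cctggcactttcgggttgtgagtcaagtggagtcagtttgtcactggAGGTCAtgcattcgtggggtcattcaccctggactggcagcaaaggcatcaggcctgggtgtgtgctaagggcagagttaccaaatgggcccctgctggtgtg
The half-site occurs in the same 250-base window of 14.0% of 32851 RefSeq promoters. The inverted pairs of GGTCA with TGACC or with TGAAC, 1 base apart and searched on both strands, were in 0.0335% and 0.0183% of promoters and in none of the windows of Fabp6, Slc10a2, Slc51a, Slc51b and Nr1h4. A match is a description of letters and not a binding site.

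The remaining bile acid genes were tested. The model was edgeR's quasi-likelihood fit on UMI sums per library, with Benjamini-Hochberg adjustment over all genes and a threshold of 0.05. Over all genes it called 1.52% of 7378, and 0 of 15 tested genes of the bile acid list that the cell limits had not used rose or fell. At an unadjusted p under 0.05 there were 3 of the 15, beside 876 of 7378 over all genes. DESeq2, which called 1.27% over all genes, called 0. The list's median log2 fold change was -0.14, beside -0.01 over all genes. Without allogeneic library 1 the list had 2 genes up (Hnf4g, Nr1h4) and 4 down (Abcb1a, Fgf15, Hnf4a, Vdr), without allogeneic library 2 it had 3 up (Abcb1a, Abcc2, Nr1h4), and without either syngeneic library 0. Replicates here are pools of mice, and p-values measure the spread between such pools.

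Nr1h4, the bile acid receptor (chr10:89454234-89533585, minus strand), was at 336 and 224 CPM in allogeneic cells, against 134 and 130 CPM in syngeneic cells. The groups did not overlap, and the difference did not pass (log2 fold change 1.13 ± 0.30 SE, adjusted p = 0.112 by edgeR). At 1000 UMIs per cell, 33.3% and 20.5% of allogeneic cells had an Nr1h4 UMI, against 13.4% and 12.4% of syngeneic cells, with 0.649% and 2.88% of allogeneic T cells, against 0 of 9 and 0 of 20 syngeneic T cells. The exact two-sided permutation test over libraries gave p = 0.333, the smallest that 2 libraries against 2 can give. The level was higher in both allogeneic libraries in each of the 4 marker-share classes described below.

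Fgf15, the ileal hormone that restrains bile acid synthesis in the liver, was near the detection limit, with 5 and 1 UMIs in allogeneic cells, against 23 and 30 UMIs in syngeneic cells. It did not pass (log2 fold change -2.59 ± 0.77 SE, adjusted p = 0.170 by edgeR). In ileal cells with lipid genes, where 2.02% of 7684 genes were called, it fell by 1.44 on the log2 scale (adjusted p = 0.0361 by edgeR). Nr0b2, the repressor induced by FXR in liver, had no UMI in any of the 4 libraries, and neither did the bile acid conjugation gene Slc27a5 or the sulfotransferase gene Sult2a1.

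Transcription factors of ileal and enterocyte identity did not pass the test. Cdx1 stood at 175 and 136 CPM in allogeneic cells, against 214 and 174 CPM in syngeneic cells, and Cdx2 at 182 and 124 CPM, against 171 and 159 CPM. Hnf4g, a nuclear receptor of enterocytes, was at 113 and 156 CPM in allogeneic cells, against 96.6 and 87.3 CPM in syngeneic cells, and its paralog Hnf4a at 185 and 73.7 CPM, against 130 and 148 CPM. Gata6 was at 56.5 and 29.0 CPM in allogeneic cells, against 50.7 and 47.2 CPM in syngeneic cells. Hnf4g had a log2 fold change of 0.68 ± 0.30 and the others between -0.28 and -0.07, none past the threshold. For the vitamin D receptor Vdr, the xenobiotic receptor Nr1i2, the FXR partner Rxra and the exporter Abcb1a, allogeneic library 1 was above and allogeneic library 2 below both syngeneic libraries. Abcb1a, for example, was at 149 and 28.4 CPM in allogeneic cells, against 71.7 and 63.2 CPM in syngeneic cells.

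The cells varied along their marker share, and other genes varied with it. Grouped by marker share (0.2% to 0.5%, 0.5% to 1%, 1% to 3%, and 3% or more), syngeneic libraries 1 and 2 held 32 and 27, 25 and 25, 41 and 50, and 119 and 115 cells. Allogeneic library 2 held 71, 67, 104 and 50 cells, and allogeneic library 1 only 15, 15, 14 and 10, so its values per class rest on few cells. From the lowest to the highest class, the median ribosomal share was 17.0%, 15.6%, 8.97% and 8.03% in allogeneic library 1 and 17.1%, 15.7%, 13.01% and 7.12% in allogeneic library 2. In syngeneic library 1 it was 18.6%, 18.0%, 15.1% and 8.68%, and in syngeneic library 2 it was 18.5%, 16.9%, 14.0% and 6.72%. Cells with a mitosis gene UMI went the same way, from 66.2% to 24.0% in allogeneic library 2, against 78.1% to 13.4% and 70.4% to 8.70% in syngeneic libraries 1 and 2. These classes are cut from the genes that chose the cells, and the values are descriptions. Fabp6 gave most marker UMIs and was lower in allogeneic cells, so a class need not hold like cells in both groups. The part of this in the values by class was not tested.

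Krt20, a keratin of differentiated villus cells, illustrates how the groups differed along this range. In the lowest class it was at 721 and 1029 CPM in allogeneic cells, against 174 and 211 CPM in syngeneic cells. In the highest class it was at 1020 and 1643 CPM in allogeneic cells, against 976 and 1065 CPM in syngeneic cells, and the groups overlapped. Over all cells Krt20 was at 827 and 1289 CPM in allogeneic cells, against 660 and 719 CPM in syngeneic cells, with an adjusted p of 0.428 by edgeR.

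Reg3b, an antimicrobial lectin, showed its difference at the other end. In the lowest class it was at 39351 and 36244 CPM in allogeneic cells, against 34004 and 36396 CPM in syngeneic cells. In the highest class it was at 42753 and 62991 CPM in allogeneic cells, against 92390 and 103406 CPM in syngeneic cells. Over all cells it was at 43906 and 44836 CPM in allogeneic cells, against 69473 and 76240 CPM in syngeneic cells, and did not pass (log2 fold change -0.64 ± 0.20 SE, adjusted p = 0.198 by edgeR). Reg3b was higher in each higher class in 3 libraries and peaked in the 1% to 3% class in allogeneic library 1. The part of the lower marker share of allogeneic cells in this difference was not tested.

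Ly6a and Nr1h4 were higher in both allogeneic libraries in every class. Ly6a was at 2028 and 3054 CPM in the lowest class in allogeneic cells, against 50.5 and 70.4 CPM in syngeneic cells. In the highest class it was at 398 and 1878 CPM in allogeneic cells, against 179 and 210 CPM in syngeneic cells. Clec2h was likewise above both syngeneic libraries in every class, with 1375 and 1116 CPM in the lowest class in allogeneic cells, against 193 and 189 CPM in syngeneic cells.

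**Figure D3:**
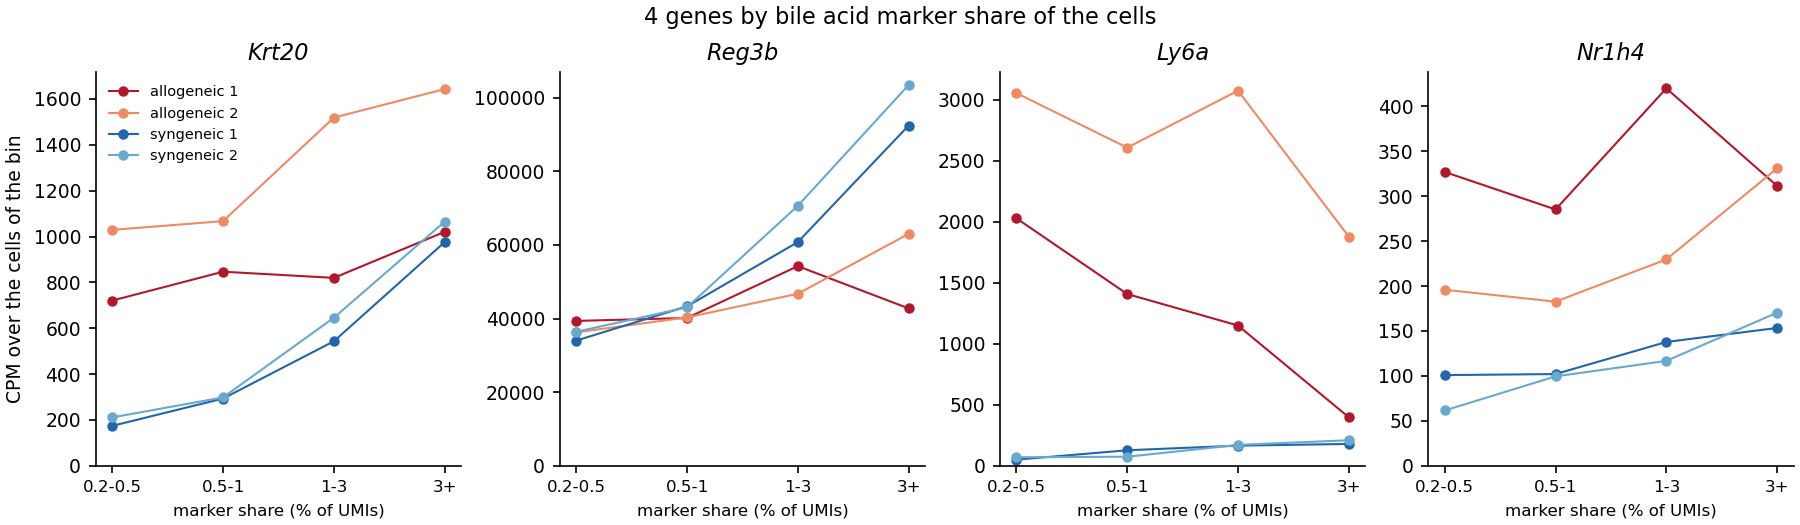
Level in CPM of Krt20, Reg3b, Ly6a and Nr1h4 over the bile acid transporting cells of each marker-share class, 1 line a library (reds allogeneic, blues syngeneic), with linear axes from 0. Ly6a and Nr1h4 lie higher in both allogeneic libraries in every class, Krt20 differs most in the lowest class, and Reg3b is lower in allogeneic libraries in the highest class.

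Across all genes, those that rose in the allogeneic cells included interferon-induced, antigen presentation and early response genes, and those that fell included detoxification and antimicrobial genes. Of 7378 genes tested outside the cell limits, 112 passed (1.52%): 77 rose (1.04%) and 35 fell (0.474%). All 112 had groups that did not overlap, which 41.9% of all tested genes also had. DESeq2 called 94 (77 and 17), of which 74 were shared. A fit without 1 library leaves a single library in a group. Such fits tested 7920 and 7955 genes without allogeneic library 1 or 2, and 7799 and 7940 without syngeneic library 1 or 2. List counts from such fits, above and below, are to be read beside the count of calls over all genes. The count depended on single libraries: it was 1594 without allogeneic library 1, 739 without allogeneic library 2, 59 without syngeneic library 1 and 49 without syngeneic library 2. In every one of these 4 fits 23 of the 112 kept their call, among them Ly6a, Ido1, Iigp1, Ubd, Gbp2, H2-Q6, H2-Q7, Bst2, Oasl1, Sgk1, Fkbp5, Jun, Upp1, Slc6a19, Reg3a, Cyp2c55, Cyp2c65 and Ces1f.

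**Figure D4:**
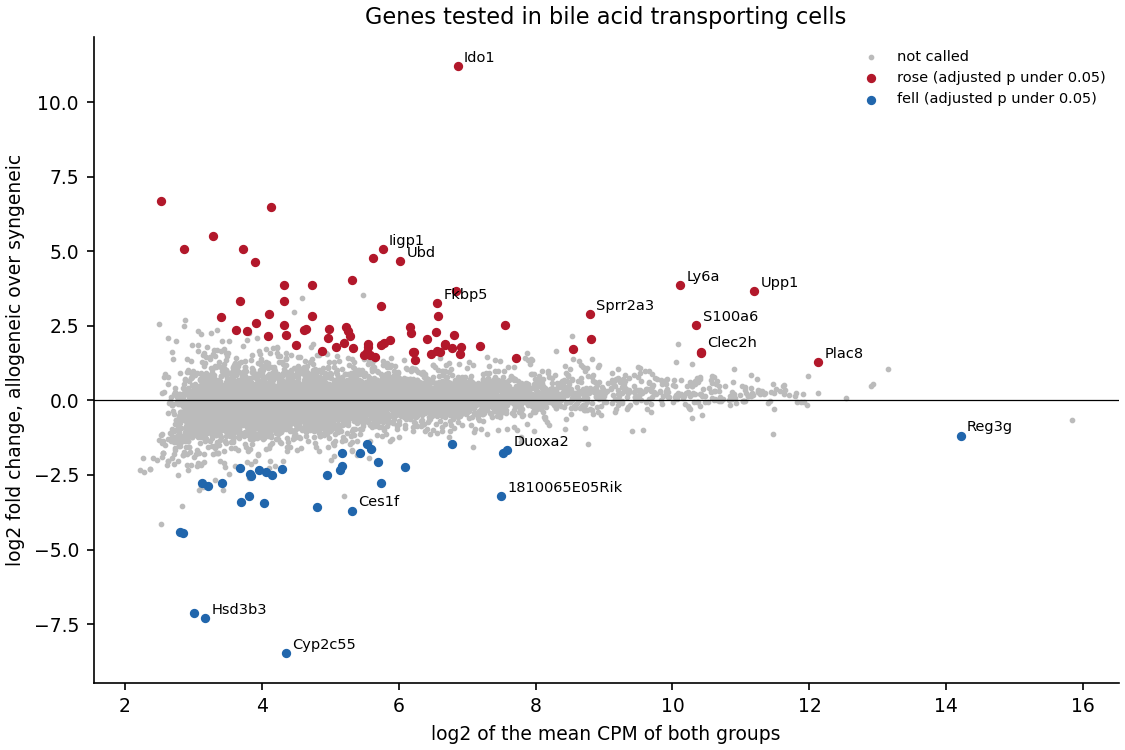
Log2 fold change of allogeneic over syngeneic bile acid transporting cells (vertical) against the log2 mean CPM (horizontal) for the genes tested. Red points are the 77 genes that rose, blue points the 35 that fell and grey points the rest; Ido1 at the top and Cyp2c55 at the bottom each had one group without a UMI, so their fitted positions depend on the fit and are no measured fold.

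Interferon-gamma-induced GTPases and regulators had 9 of 22 tested genes up and 1 down with all 4 libraries, and a median log2 fold change of 1.23. Ido1, which breaks down tryptophan, had 41.1 and 425 CPM in allogeneic cells, against no UMI in syngeneic cells. With 3 UMIs taken as the limit over the syngeneic group, Ido1 was at least 34.1-fold higher in allogeneic library 1 and at least 353-fold higher in allogeneic library 2. Ubd, a ubiquitin-like protein induced by interferon-gamma and TNF, was at 51.4 and 198 CPM in allogeneic cells, against 4.83 and 6.40 CPM in syngeneic cells (log2 fold change 4.69 ± 0.65, adjusted p = 0.0114 by edgeR). The guanylate-binding protein gene Gbp2 was at 46.2 and 52.5 CPM in allogeneic cells, against 4.83 and 2.40 CPM in syngeneic cells. Iigp1, an immunity-related GTPase, was at 103 and 109 CPM in allogeneic cells, against 2.42 and 4.00 CPM in syngeneic cells (log2 fold change 5.09 ± 0.39, adjusted p = 0.00083 by edgeR). Its relative Tgtp1 had 12.8 and 10.3 CPM in allogeneic cells, against no UMI in syngeneic cells, at least 8.52-fold higher in the lower of the allogeneic libraries by the same limit. Socs3, an inhibitor of cytokine signalling, was the member that fell, with 20.5 and 7.25 CPM in allogeneic cells, against 58.0 and 56.0 CPM in syngeneic cells. The list had 16 genes up and 1 down without allogeneic library 1, 10 up and 1 down without allogeneic library 2, 5 up without syngeneic library 1 and 4 up without syngeneic library 2. Tgtp1 and Socs3 lost their calls without either syngeneic library, and Tgtp1 was too rare to test without allogeneic library 2. T cell markers, although low, were also higher in the allogeneic cells (12.8 and 59.8 CPM, against 2.42 and 8.01 CPM), and their part in this list was not tested.

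Genes of MHC class I presentation rose in 5 of 23 tested cases and fell in 0, with a median log2 fold change of 0.83. B2m, the shared light chain, was at 2078 and 1977 CPM in allogeneic cells, against 700 and 709 CPM in syngeneic cells (log2 fold change 1.60 ± 0.27, adjusted p = 0.0197 by edgeR). It was detected in 83.3% and 85.3% of allogeneic cells at 1000 UMIs, against 48.8% and 50.7% of syngeneic cells. H2-Q7, a non-classical class I gene, was at 71.9 and 77.3 CPM in allogeneic cells, against 2.42 and 7.21 CPM in syngeneic cells. The classical genes H2-K1 and H2-D1 had log2 fold changes of 1.24 and 1.28 with adjusted p of 0.0532 and 0.0587 by edgeR. DESeq2 called both, while H2-Q4 and H2-T22, which edgeR called, lost their calls there. The H2 genes are close copies of each other, and how shared reads were assigned is not given in the sources used here. The list had 18 up and 1 down without allogeneic library 1, 12 up without allogeneic library 2, and 2 up, H2-Q6 and H2-Q7, without either syngeneic library.

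Class II genes were higher in both allogeneic libraries for 7 of 8 tested genes, beside 16.0% of all 7378 genes tested. Of the 8, 0 passed by edgeR or by DESeq2. At an unadjusted p under 0.05 by edgeR there were 4, beside 876 of 7378 over all genes. The invariant chain gene Cd74 was at 5134 and 4935 CPM in allogeneic cells, against 3053 and 2996 CPM in syngeneic cells (log2 fold change 0.81 ± 0.24, adjusted p = 0.176 by edgeR). H2-Ab1 was at 1228 and 760 CPM in allogeneic cells, against 448 and 521 CPM in syngeneic cells, and did not pass (adjusted p = 0.142 by edgeR). Without allogeneic library 1 there were 5 class II genes up and without allogeneic library 2 there were 4, in both cases with Cd74, H2-Aa, H2-Ab1 and H2-Eb1 among them.

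Interferon-stimulated antiviral genes rose in 7 of 22 tested cases and fell in 0, with a median log2 fold change of 1.14. Bst2, which tethers budding virus particles, was at 92.5 and 98.4 CPM in allogeneic cells, against 13.7 and 8.81 CPM in syngeneic cells (log2 fold change 3.18 ± 0.33, adjusted p = 0.00337 by edgeR). Usp18, the protease that removes ISG15, had 62 UMIs over the allogeneic group, against 2 over the syngeneic group, a ratio of 37.7 in CPM with an exact counting interval of 10.0 to 319. Isg15 itself was at 41.1 and 26.6 CPM in allogeneic cells, against 5.64 and 8.81 CPM in syngeneic cells. The list had 12 up and 2 down without allogeneic library 1, 8 up and 2 down (Ifit1bl1 and Ifitm2) without allogeneic library 2, 3 up without syngeneic library 1 and 4 up without syngeneic library 2. Isg15 lost its call without either syngeneic library and in DESeq2, and Usp18 was too rare to test without allogeneic library 2.

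The upstream sequences of B2m, Bst2 and Tgtp1 are shown because these 3 genes rose and hold letters of the elements read by interferon-activated factors. Capitals mark TTCNNNGAA (GAS, the interferon-gamma-activated site) and GAAA, any 2 bases, GAAA (ISRE, the element of interferon-regulatory factors), searched on both strands from 150 to 51 bases before the RefSeq start on GRCm38.p6. B2m (chr2:122147537-122147636, plus strand) has an ISRE match at -139 to -130. Bst2 (chr8:71537523-71537622, minus strand) has a GAS match at -136 to -128 that overlaps the first of 2 mutually overlapping ISRE matches at -130 to -121 and -124 to -115. Tgtp1 (chr11:48992297-48992396, minus strand), whose stretch lies inside the gene as GENCODE places it (chr11:48985327-48994172), has a GAS match at -88 to -80 and an ISRE match at -77 to -68.
B2m: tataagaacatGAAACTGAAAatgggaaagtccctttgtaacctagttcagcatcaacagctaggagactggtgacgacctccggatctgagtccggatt
Bst2: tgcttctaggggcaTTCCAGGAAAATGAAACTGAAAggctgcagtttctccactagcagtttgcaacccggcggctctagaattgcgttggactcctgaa
Tgtp1: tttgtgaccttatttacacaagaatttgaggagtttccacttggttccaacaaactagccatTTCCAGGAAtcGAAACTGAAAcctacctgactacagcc
Over all 32851 promoters, the 250-base window held the GAS letters in 7.02% and the ISRE letters in 2.98%. Among the 62 of 77 genes that rose and have a RefSeq promoter, 11 (17.7%) held the GAS letters and 11 (17.7%) the ISRE letters. Among the 29 of 35 genes that fell and have one, 5 (17.2%) held the GAS letters and 3 (10.3%) the ISRE letters. A gene counted when any of its promoters held the letters, while the shares over all are of single promoters. Genes with several promoters thus had more chances, and the shares are not in like units. These counts carry no test.

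The Ly6 and regeneration list had 3 of 12 tested genes up and 0 down. Ly6a, which encodes the surface protein Sca-1, was at 1382 and 2753 CPM in allogeneic cells, against 147 and 159 CPM in syngeneic cells (log2 fold change 3.86 ± 0.42, adjusted p = 0.00337 by edgeR). At 1000 UMIs, 59.3% and 86.6% of allogeneic cells had a Ly6a UMI, against 14.3% and 11.1% of syngeneic cells; T cells had 5.19% and 17.3% in allogeneic libraries, against 1 of 9 and 0 of 20 cells in syngeneic ones. Only 9 and 20 T cells were syngeneic, and whether T cells made Ly6a RNA themselves was not tested. Their shares are thus no clean measure of background. S100a6, a calcium-binding protein, was at 1495 and 2905 CPM in allogeneic cells, against 366 and 452 CPM in syngeneic cells. The EGF-family ligand gene Areg was at 46.2 and 58.0 CPM in allogeneic cells, against 8.86 and 12.8 CPM in syngeneic cells. Krt19 and Krt8, keratins on the same list, had log2 fold changes of -0.06 and 0.09 with adjusted p of 0.956 and 0.932 by edgeR. The list had 13 genes up without allogeneic library 1 and 5 up without syngeneic library 2, and S100a6 and Areg lost their calls without syngeneic library 1.

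Several of the 10 largest rises lay outside the interferon lists. Sgk1, a kinase that raises sodium channel and transporter activity and is known to be induced by corticosteroids, was at 89.9 and 101 CPM in allogeneic cells, against 2.42 and 4.80 CPM in syngeneic cells (log2 fold change 4.79 ± 0.41, adjusted p = 0.00107 by edgeR). Fkbp5 and Tsc22d3, known glucocorticoid-induced genes chosen here after their values were seen, rose by 3.27 ± 0.36 and 1.81 ± 0.29 on the log2 scale (adjusted p = 0.00337 and 0.0179 by edgeR), and Tsc22d3 lost its call without either syngeneic library. Angptl4, a lipoprotein lipase inhibitor, had 34 UMIs over the allogeneic group, against 1 over the syngeneic group, a ratio of 41.4 with an exact counting interval of 6.94 to 1680, and lost its call without syngeneic library 2 and in DESeq2. Upp1, uridine phosphorylase, also named after its values were seen, was at 2227 and 6397 CPM in allogeneic cells, against 397 and 347 CPM in syngeneic cells. The others of the 10 were 2010109I03Rik, Gm4951 and H2-Q6, with 102, 47 and 38 UMIs over the allogeneic group, against 1, 1 and 2 UMIs over the syngeneic group. Angptl4, 2010109I03Rik and Gm4951 were too rare to test without allogeneic library 2, and 2010109I03Rik lost its call in DESeq2.

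Brush border genes shifted mostly upward, though few passed: 3 of 25 tested genes rose and 0 fell, with 23 of 25 fold changes above 0. Their median was 0.72 on the log2 scale, beside -0.01 over all genes. The cell limit rests mostly on Fabp6, which was lower in allogeneic cells, and its part in these values was not tested. Slc6a19, the neutral amino acid transporter, was at 51.4 and 22.3 CPM in allogeneic cells, against 4.03 and 2.40 CPM in syngeneic cells (log2 fold change 3.33 ± 0.55, adjusted p = 0.0182 by edgeR). Ezr, the ezrin gene that links microvillar membrane to actin, was at 642 and 492 CPM in allogeneic cells, against 161 and 197 CPM in syngeneic cells. Tmigd1, an adhesion molecule of the brush border, was at 604 and 830 CPM in allogeneic cells, against 151 and 214 CPM in syngeneic cells. Sucrase-isomaltase, Sis, was at 783 and 553 CPM in allogeneic cells, against 321 and 284 CPM in syngeneic cells. It did not pass in edgeR (adjusted p = 0.0896) but passed in DESeq2, which called 6 genes of the list up and 0 down. The list had 9 up and 2 down without allogeneic library 1, 18 up and 1 down without allogeneic library 2, and 1 up, Slc6a19, without either syngeneic library.

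Of the other enterocyte lists, distal genes had 1 of 6 up, Clec2h, a C-type lectin of the ileal epithelium. It was at 2417 and 1663 CPM in allogeneic cells, against 704 and 660 CPM in syngeneic cells (log2 fold change 1.64 ± 0.28, adjusted p = 0.0207 by edgeR), and lost the call without either syngeneic library. Lipid absorption and oxidation had 1 of 17 up, the acyl-CoA synthetase gene Acsl5, at 300 and 302 CPM in allogeneic cells, against 110 and 127 CPM in syngeneic cells. The lipid list had 3 up and 1 down without allogeneic library 1, 8 up without allogeneic library 2 and 0 calls without either syngeneic library. The distal list had 1 up and 1 down without allogeneic library 1 and 2 up without allogeneic library 2. Proximal genes (7 tested), villus tip genes (7 tested), cholesterol synthesis genes (19 tested), tight junction genes (14 tested), ion transport genes (16 tested), cell death genes (17 tested) and epithelial chemokines (5 tested) had 0 calls each in edgeR. At an unadjusted p under 0.05 they had 2, 4, 3, 3, 6, 6 and 1 genes, beside 876 of 7378 over all genes. DESeq2 called at most 1 in each. Most of these lists had calls in the fits without an allogeneic library, where calls over all genes were also more frequent. Without either syngeneic library the proximal list had 1 gene down, Slc40a1, and the chemokines had 2 up, Cxcl9 and Cxcl10, which were not tested with all 4 libraries.

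Several members of these lists had groups that did not overlap without passing the test, beside 41.9% of all 7378 tested genes whose groups did not overlap. Guca2b, the gene of uroguanylin, a ligand of the intestinal guanylate cyclase, was at 696 and 464 CPM in allogeneic cells, against 293 and 269 CPM in syngeneic cells (adjusted p = 0.131 by edgeR). The pore-forming claudin gene Cldn15 was at 77.0 and 107 CPM in allogeneic cells, against 220 and 225 CPM in syngeneic cells (adjusted p = 0.130 by edgeR). The iron exporter gene Slc40a1 was at 23.1 and 1.21 CPM in allogeneic cells, against 54.0 and 68.9 CPM in syngeneic cells (adjusted p = 0.0592 by edgeR). The barrier claudin genes Cldn7 and Cldn3 differed little, with log2 fold changes of 0.24 ± 0.26 and 0.11 ± 0.27 (SE), as did the isoprenoid synthesis gene Fdps at 0.08 ± 0.33.

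Early response genes had 3 of 17 up, Jun, Dusp1 and Zfp36, with a median log2 fold change of 1.20. Jun was at 167 and 74.9 CPM in allogeneic cells, against 24.97 and 24.0 CPM in syngeneic cells (log2 fold change 2.26 ± 0.36, adjusted p = 0.0177 by edgeR). Fos was at 144 and 107 CPM in allogeneic cells, against 53.2 and 59.2 CPM in syngeneic cells, with an adjusted p of 0.0662 by edgeR. The heat shock gene Hspa1b was at 74.5 and 15.1 CPM in allogeneic cells, against 3.22 and 3.202 CPM in syngeneic cells, and passed in DESeq2 but not in edgeR (adjusted p = 0.0662). The list had 11 up without allogeneic library 1 and 9 up without allogeneic library 2, and Dusp1 and Zfp36 lost their calls without either syngeneic library and in DESeq2. The mitochondrial share of the cells was highest in allogeneic library 1 and lowest in allogeneic library 2 (medians 10.4% and 5.68%, against 8.03% and 8.85% in syngeneic libraries), and its part in these values was not tested.

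Antimicrobial and defence genes moved in both directions, with 3 of 20 up and 3 down and a median log2 fold change of -0.90. Reg3g, a lectin that kills Gram-positive bacteria, was at 11745 and 10763 CPM in allogeneic cells, against 24571 and 28777 CPM in syngeneic cells (log2 fold change -1.18 ± 0.22, adjusted p = 0.0345 by edgeR). Its relative Reg3a was at 30.8 and 18.7 CPM in allogeneic cells, against 105 and 119 CPM in syngeneic cells. Duoxa2, the maturation factor of the hydrogen peroxide producing oxidase Duox2, was at 66.8 and 104 CPM in allogeneic cells, against 286 and 312 CPM in syngeneic cells. The genes that rose were the pore-former gene Gsdmd, the nucleic acid sensor gene Zbp1, which is also on the antiviral list, and Sprr2a3, at 488 and 1066 CPM in allogeneic cells, against 74.9 and 151 CPM in syngeneic cells. Sprr2a3 has near-identical neighbours, so its count may be shared with them. The list had 6 up and 11 down without allogeneic library 1, 4 up and 8 down without allogeneic library 2, and 1 up and 1 down without either syngeneic library. Reg3a kept its call in each of these 4 fits, while Reg3g, Duoxa2, Gsdmd and Zbp1 lost theirs without either syngeneic library and Sprr2a3 without syngeneic library 1.

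Detoxification genes fell in 3 of 21 tested cases and rose in 0, with a median log2 fold change of -0.38. Cyp2c55, a cytochrome P450 of the gut, had no UMI in allogeneic cells, against 27.4 and 54.4 CPM in syngeneic cells, at least 18.7-fold lower than in the lower of the syngeneic libraries, with 3 UMIs taken as the limit over the allogeneic group. Cyp2c65 was at 5.14 and 3.62 CPM in allogeneic cells, against 42.7 and 60.8 CPM in syngeneic cells (log2 fold change -3.56 ± 0.46, adjusted p = 0.00951 by edgeR). The glutathione transferase gene Gsta4 was at 23.1 and 23.5 CPM in allogeneic cells, against 65.2 and 73.7 CPM in syngeneic cells. Other genes among the 10 largest falls were Ces1f, a carboxylesterase, at 18.0 and 1.21 CPM in allogeneic cells, against 73.3 and 66.4 CPM in syngeneic cells, and the steroid dehydrogenase gene Hsd3b3. Hsd3b3 and the membrane protein gene Fam151a had no UMI in allogeneic cells and were each at least 9.885-fold lower by the same limit. Akr1c14 and Ugt2b5 had 1 UMI each over the allogeneic group, against 34 and 35 UMIs over the syngeneic group, ratios of syngeneic over allogeneic of 27.9 (exact counting interval 4.68 to 1130) and 28.7 (4.83 to 1170). The remaining 3, Fam107b, B3galt5 and 1810065E05Rik, had log2 fold changes of -3.44, -3.40 and -3.21. The Cyp2c genes are close copies, so their counts may be shared. The list had 2 up and 13 down without allogeneic library 1 and 4 up and 4 down without allogeneic library 2, and Gsta4 lost its call without either syngeneic library and in DESeq2. Ugt2b5 lost its call without either syngeneic library, and Hsd3b3, Fam151a, B3galt5 and Akr1c14 without syngeneic library 2, and Akr1c14 was too rare to test without syngeneic library 1. Ces1f, Ugt2b5, Akr1c14 and B3galt5 lost their calls in DESeq2.

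**Figure D5:**
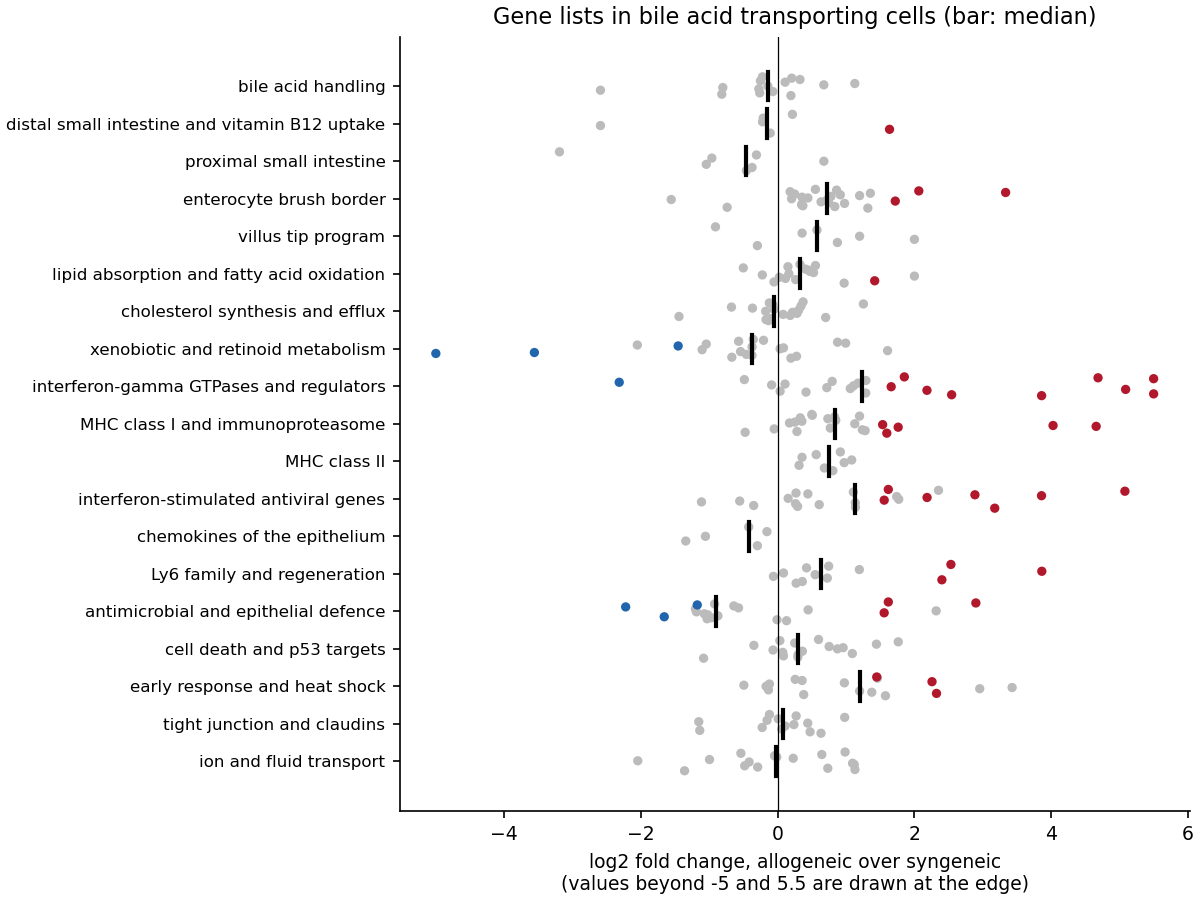
Log2 fold change of allogeneic over syngeneic bile acid transporting cells for the tested genes of 19 fixed lists, 1 row a list and 1 point a gene (red rose, blue fell, grey did not pass), with black bars at the medians. Interferon, class I and early response lists lie to the right of 0, with medians of 1.23, 1.14, 0.83 and 1.20, and the antimicrobial list lies to the left with a median of -0.90.

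The allogeneic effect was then compared with that in 3 other sets of cells by an interaction term with library as a block. Against all other cells without Ptprc, 13 of 11545 genes differed (0.113%), 6 with a higher (0.052%) and 7 with a lower effect (0.0606%) in bile acid transporting cells. Ly6a was among them, with an effect that differed by -1.49 ± 0.24 on the log2 scale (SE, adjusted p = 0.00667 by edgeR). In the other cells it was at 634 and 1846 CPM in allogeneic libraries, against 24.3 and 33.6 CPM in syngeneic libraries, where the change by itself missed the threshold (log2 fold change 5.55, adjusted p = 0.0942 by edgeR, where 0.158% of 12053 genes were called). The effect on Jun was higher by 1.68 ± 0.30 and that on the guanylin gene Guca2a by 1.46 ± 0.25 on the log2 scale. Guca2a, the ligand of the intestinal guanylate cyclase, was at 827 and 485 CPM in allogeneic bile acid transporting cells, against 314 and 307 CPM in syngeneic ones. In the other cells it was at 588 and 572 CPM in allogeneic libraries, against 697 and 793 CPM in syngeneic ones. No tested gene of the bile acid (19), MHC class I (25), class II (9) or interferon-gamma (30) lists was called. The count was 419 without allogeneic library 1, 404 without allogeneic library 2, and 9 without either syngeneic library, and at an unadjusted p under 0.05 it was 535. Ly6a, Jun and Guca2a lost their calls without either syngeneic library.

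Against lipid-absorbing enterocytes (70 and 72 cells in allogeneic libraries, against 114 and 85 in syngeneic libraries), 54 of 5194 genes differed (1.04%), 33 with a higher (0.635%) and 21 with a lower effect (0.404%). Among the higher were Slc6a19, Tmigd1, S100a6, Jun, Fos and Oasl1. Among the lower were the cell cycle genes Cdk1, Hmgb2, Top2a and Tubb5. In the comparison set, 45.8% of cells of allogeneic library 2 had a mitosis gene UMI, against 8.57% in allogeneic library 1 and 7.89% and 4.71% in the syngeneic libraries, and the part of that difference in these calls was not tested. The count was 897 without allogeneic library 1 and 25 without syngeneic library 2. Jun, Oasl1 and Tubb5 kept their calls whichever library was left out, while Slc6a19, Tmigd1, S100a6, Fos and Hmgb2 lost theirs without either syngeneic library, Cdk1 without allogeneic library 2, and Top2a without allogeneic library 2 or syngeneic library 2.

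Against ileal cells with lipid genes (313 and 2018 cells in allogeneic libraries, against 455 and 515 in syngeneic libraries), a comparison chosen after seeing the data, 260 of 8337 genes differed (3.12%), 115 with a higher (1.38%) and 145 with a lower effect (1.74%). Here 4 of 8 class II genes, Ciita, H2-Aa, H2-Ab1 and H2-Eb1, had a higher effect in the bile acid transporting cells, and 0 had a lower one. So did 5 of 28 brush border genes and 6 of 26 interferon-gamma genes, with 0 and 1 lower. Cycling markers had a lower effect in 7 of 14 cases and a higher one in 0. Of 17 tested genes of the bile acid list, Gata6 and Hnf4g were called, 1 in each direction. The count was 109 without allogeneic library 2, 62 without syngeneic library 1 and 89 without syngeneic library 2. The class II genes lost their calls without either syngeneic library, and Gata6 and Hnf4g without allogeneic library 2.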

How the data were processed

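Counts of UMIs per gene and barcode were used as deposited by the authors, unnormalized. The submitters' processing notes name Cell Ranger 2.1.1 and the build mm10, and the file headers give software version 3.1.0. Crypts were isolated with EDTA and dissociated with TrypLE, and libraries were made with a 10x Genomics 3′ kit, per the labels' protocols. The annotation release and the barcode rule were left unstated in the labels. No deposited barcode held fewer than 500 UMIs. The dense copies of the matrices were not used here.

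Counts were summed over the chosen cells of each library. Genes were filtered with filterByExpr, scaled by TMM and tested with edgeR 4.0.16 (estimateDisp and glmQLFit, both robust) in R 4.3.3, with Benjamini-Hochberg adjustment over all genes tested and a threshold of 0.05. Genes used by the cell limits stayed in the fit and out of the counts. DESeq2 1.42.0 was an alternative. Interactions were fitted on sums of 2 cell sets with library as a block. Scrublet in scanpy 1.11.5 called 89 of 12285 kept barcodes doublets, which stayed in. At 3′ tags, a level in CPM is not per length, and levels were compared between samples and not between genes. Numbered libraries carry no pairing. Scripts were tested on simulated data. Gene positions are from GENCODE M21 (GRCm38).

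The chosen cells and all gene lists were selected with earlier results of these data known. Genes named are drawn from the 10 largest rises and falls, all genes of the bile acid list, for each other list the most abundant and most changed members, the 5 largest interaction terms in each direction and the leading genes. Others are named after their values were seen, including called genes of a list, the genes of the marker-share classes and called list members in the interactions. The alternatives were other cell limits, filters, scaling, thinning, and each library left out in turn.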

Additional observations from a re-analysis of the deposited data

Results flagged for a closer look

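The values in this section are differences on the log2 scale between the allogeneic over syngeneic change in bile acid transporting cells and the same change in another set of cells, each past an adjusted p of 0.05 by edgeR. They are listed because the change differed between 2 sets of cells. A positive difference means a higher allogeneic change in the bile acid transporting cells.

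The gene 2010109I03Rik, for which no function is given here, differed against every set, by 8.23 against lipid-absorbing enterocytes, 7.24 against other cells without Ptprc and 6.92 against ileal cells with lipid genes. It stood at 10.3 and 59.2 CPM in allogeneic bile acid transporting cells, against 0 and 0.801 CPM in syngeneic ones. These levels rest on 4 and 98 UMIs, against 0 and 1 UMIs, so the sizes of the 3 differences depend on the fit. In lipid-absorbing enterocytes 2010109I03Rik was at 822 and 974 CPM in allogeneic libraries, against 2828 and 5538 CPM in syngeneic ones. The gene was thus lower in allogeneic cells there. These 3 calls held whichever library was left out. The tetraspan gene Tm4sf4 differed by 6.51, 3.58 and 4.67 against the same 3 sets, and lost each call without allogeneic library 2. Against other cells without Ptprc it also lost the call without either syngeneic library. Tm4sf4 had only 1 and 11 UMIs in allogeneic bile acid transporting cells, against 2 and 4 UMIs in syngeneic ones, so its differences depend on the fit.

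Against lipid-absorbing enterocytes the other large differences were 4.70 for the myelin protein gene Pmp22 and 4.65 for Oasl1, and, downward, -5.80 for Mrto4, -4.59 for Cdk1, -3.86 for Dut, -3.80 for Hist1h2ae and -3.76 for Dtymk. Cdk1 and Hist1h2ae are genes of dividing cells. Pmp22, Oasl1 and Dut kept their calls whichever library was left out, Mrto4 lost its call without allogeneic library 2 or syngeneic library 1, Cdk1 without allogeneic library 2, Dtymk without syngeneic library 1, and Hist1h2ae without any one of allogeneic library 2 and the syngeneic libraries. Chgb, a granule protein gene of enteroendocrine cells, was also called (adjusted p = 0.0011 by edgeR) and lost the call without syngeneic library 2. It stood at 139 and 27.8 CPM in allogeneic bile acid transporting cells, against 0.805 and 11.2 CPM in syngeneic ones, and in lipid-absorbing enterocytes at 0 and 0 CPM in allogeneic libraries, against 2.52 and 104 CPM in syngeneic ones, so its fitted difference of 12.03 depends on the fit. Lipid-absorbing enterocytes of allogeneic library 2 stood apart, with a mitosis gene UMI in 45.8% of cells, against 4.71% to 8.57% in the other 3 libraries, and its part in these differences was not tested.

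Against other cells without Ptprc the differences were 2.32 for Reep5, 1.68 for Jun and 1.46 for Guca2a, and -2.18 for Akr1b8, -1.72 for Saa1 and -1.49 for Ly6a. All 6 lost their calls without either syngeneic library. Cyp2c55 and Hsd3b3 had no UMI in allogeneic bile acid transporting cells, so their fitted differences of -12.01 and -11.28 depend on the fit (adjusted p = 6.24e-06 and 0.00379 by edgeR). Cyp2c55 was at 0 and 0 CPM in allogeneic bile acid transporting cells, against 27.4 and 54.4 CPM in syngeneic ones, and in the other cells at 7.62 and 31.1 CPM in allogeneic libraries, against 14.9 and 24.4 CPM in syngeneic ones, and it kept its call whichever library was left out. Hsd3b3 was at 0 and 0 CPM in allogeneic bile acid transporting cells, against 14.5 and 21.6 CPM in syngeneic ones, and in the other cells at 0.971 and 6.04 CPM in allogeneic libraries, against 2.81 and 2.70 CPM in syngeneic ones, and it lost its call without allogeneic library 2.

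Against ileal cells with lipid genes the differences were 4.46 for Rhebl1, 3.57 for Cxcl16 and 3.497 for Apol9a, and -5.34 for Vgll4, -5.15 for Nusap1 and -4.09 for Slc41a3. Most rest on few UMIs, so their sizes depend on the fit. In bile acid transporting cells Rhebl1 had 3 and 33 UMIs in allogeneic libraries, against 0 and 1 in syngeneic ones. In the same order, Cxcl16 had 0 and 21, against 1 and 1, and Apol9a 3 and 10, against 0 and 1. Vgll4 had 1 and 3, against 17 and 24, and Slc41a3 0 and 1, against 13 and 15. Apol9a lost its call whichever library was left out, while Vgll4 kept its call in all 4 fits. Hsd3b3 and Cyp2c55 were called here too, with fitted differences of -7.28 and -6.38, and lost their calls without allogeneic library 2 and without allogeneic library 1.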

How the results depend on the processing

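The count of 112 changed genes was 360 with no filter on low counts, 46 with at least 20 CPM in 2 libraries, 60 with markers at 1% of UMIs or more, 45 after thinning to 1000 UMIs and 329 with no lipid limit, an alternative added after seeing the data. It was within 1.5 times of 112 with DESeq2 (94), DESeq2 size factors (111), markers at 0.5% (88), at least 2 of the 4 markers (159), a 10% mitochondrial limit (129), no cells with a mitosis gene UMI (87) and no called doublets (89). Genes that rose were 68.75% of calls, 81.9% in DESeq2 and 54.7% with at least 2 markers. Leaving out 1 library gave 49 to 1594 calls. The 54 interaction calls against lipid-absorbing enterocytes became 126 with markers at 0.5% and 198 with no filter, and 25 to 897 without 1 library. The 13 against other cells without Ptprc became 46 and 46, and 9 to 419 without 1 library. The 260 against ileal cells with lipid genes became 62 to 326. The cause of these differences in counts was not tested. The share of bile acid transporting cells differed by -3.75 percentage points, and this was -5.39 to -2.11 without 1 library and 7.20, a reversal, with no lipid limit, which counts all ileal cells. Of 1884 values over 125 named genes, 1670 kept their status, called or not, and direction, 64 lost a call and 149 gained one. Genes without a call that stayed without one are among the 1670, so that number is no measure of how many calls held. Abcb1a reversed, at 0.19 with all libraries, -1.08 without allogeneic replicate 1 and 1.12 without allogeneic replicate 2. Allogeneic library 1, with 54 cells, limits the precision. No paired analysis was possible because the labels give no replicate numbers shared between the groups.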
